A study of Mus musculus with 6 samples.

Results

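The imprinted growth genes were the 9 rows of the deposited expression table whose symbol was Rtl1, Meg3, H19, Igf2, Igf2r, Cdkn1c, Peg3, Mest or Grb10. They were chosen by name, and all 9 names had a row among the 10189 genes of the table. The table holds total RNA sequencing of primary articular chondrocytes, the cartilage-forming cells of the joint surface, from C57BL/6 mice that were 5 weeks old. The KO mice (3 libraries) were miR-34a-/-, homozygous for a deletion of the microRNA gene Mir34a in all cells, and were bred from heterozygous parents. They were compared with wild-type mice (WT, 3 libraries), and the model name Mir34atm1.2 Mrl stands in the labels of both genotypes. In both genotypes, cartilage of hips and knees was pooled, digested with collagenase and cultured to confluence, so the values describe cells after culture and not the tissue. Whether libraries of the same genotype stem from different animals or culture dishes is not in the labels, so a p-value here measures only the spread between these libraries, which may be technical.

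An imprinted gene is transcribed mainly or only from the copy inherited from 1 parent, and imprinted genes lie in clusters under shared control regions that carry DNA methylation from the egg or the sperm. Many act on growth before and after birth: paternally expressed genes such as Igf2 and Rtl1 tend to promote it, and maternally expressed genes such as H19, Igf2r, Cdkn1c and Grb10 tend to restrain it. Several are high in fetal tissues and decline after birth, and in the growth plate Igf2 and Cdkn1c bear on the division and the exit from division of chondrocytes. Expression was given as TMM-normalized CPM, a read count scaled to library size and written CPM below, and these values do not tell the parental copies apart. The library kit keeps the strand of the RNA, but the sources used here do not say how counting used it. In 3 pairs of rows on opposite strands the partner exceeded the gene in every library: Copg2 over Mest, Peg3os over Peg3, and Tsix over Xist (8.12 to 16.5 times). Whether reads were assigned to the strand opposite to that of the gene was not tested and is not settled by the table, and the value of every gene below carries this limit. Because the samples were bulk RNA, fewer cells of a type and less RNA per cell cannot be told apart.

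Coordinates are those of GENCODE M21 on mm10. Rtl1 lies at chr12:109589193-109600330 on the minus strand, and the long noncoding RNA gene Meg3 lies at chr12:109541001-109571726 on the plus strand, both in the Dlk1-Dio3 cluster. H19 at chr7:142575529-142578143 and Igf2 at chr7:142650766-142666816 are neighbours on the minus strand of chromosome 7, with Cdkn1c further along at chr7:143458339-143461050, in the Kcnq1ot1 cluster. Peg3 lies at the other end of that chromosome at chr7:6703892-6730431. Igf2r is at chr17:12682406-12769664, Mest at chr6:30723547-30748465 and Grb10 at chr11:11930508-12038683.

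The deleted microRNA pairs with targets mainly through its seed, bases 2 to 8. The mature sequences and the transcript stretches that match this seed are shown because they tie the deleted gene to the members by sequence. Capitals mark the seed in the microRNA and the match to it in the transcripts. The microRNA is from RefSeq (GRCm38.p6), and the stretches are from GENCODE M21 transcripts:
miR-34a-5p (chr4:150068473-150068494): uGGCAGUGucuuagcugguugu
Rtl1 3′ UTR (chr12:109589270-109589292): accagacccacugcuCACUGCCa
Igf2 3′ UTR, first match (chr7:142652591-142652613): cagauaaggagauggCACUGCCa
Igf2 3′ UTR, other match (chr7:142651806-142651828): gggcucccagcuggcCACUGCCa
Meg3 RNA (chr12:109566723-109566745): ccuccccaggcuucaCACUGCCu

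The letters searched were CACUGCC, on the strand of the transcript only. Rtl1 held 1 match in 976 bases of 3′ UTR and Igf2 held 2 in 3050 bases. Meg3, which encodes no protein, held 1 match in a transcript of 14548 bases. The letters were not in the annotated 3′ UTR of Igf2r, Cdkn1c, Peg3, Mest or Grb10, nor in the 2286 bases of H19 RNA. Of 9343 genes with a 3′ UTR of at least 20 bases, 1672 (17.9%) held a match. A match describes the sequence and is not evidence of a site in use. Of the genes that hold one, Rtl1 and Meg3 had higher KO means and Igf2 had a lower KO mean, as given below.

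None of the 9 genes passed limma at an adjusted p below 0.05, a threshold that 0.00981% of the 10189 genes passed. Their log2 fold changes, KO over WT, ran to both sides of 0, with 6 higher and 3 lower KO means on the log scale and a median of 0.24, against 0.02 for all genes. At an unadjusted limma p below 0.05, Rtl1 and Meg3 were higher, 2 of 9, where 4.64% of all genes were. H19 was lower by the same measure, 1 of 9, where 6.4% of all genes were. All 3 KO libraries were above all 3 WT libraries for 2 genes, Meg3 and Cdkn1c, a pattern seen in 8.82% of all genes. Cdkn1c reached the lowest level kept in the table through KO libraries only, as given below, so its separation is a description only. All 3 KO libraries were below all 3 WT libraries for 1 gene, H19, as for 9.57% of all genes. On reads recovered from the CPM values, DESeq2 called 1 member, H19, lower at an adjusted p below 0.05, where 2% of the 4056 genes with an adjusted p were called lower. DESeq2 gave no adjusted p for Rtl1, Meg3, Igf2 and Cdkn1c. On the same reads edgeR called none of the members (0.0196% of all genes called), and limma-voom called none (0.00981% of all genes).

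**Figure D1:**
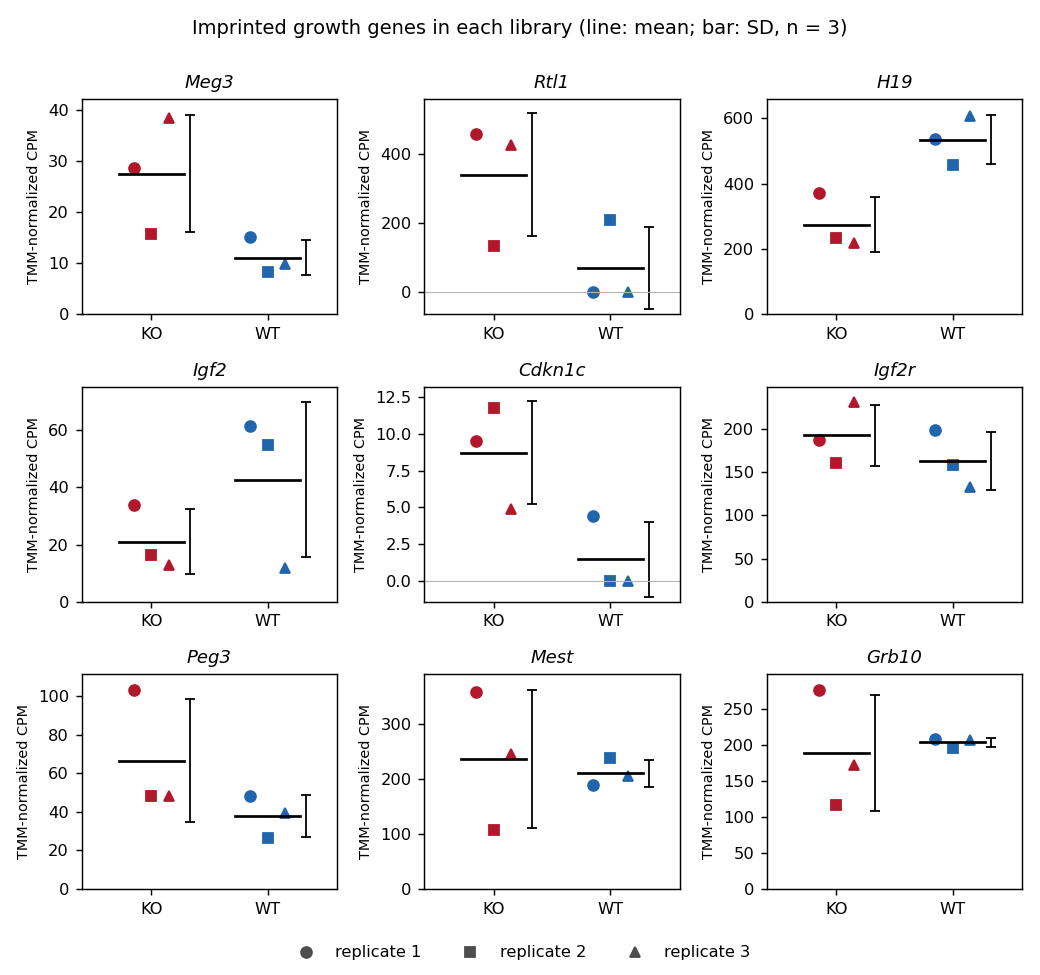
TMM-normalized CPM of the 9 genes in each library on linear axes, KO at the left in red and WT at the right in blue, with the mean as a line and the SD (n = 3) as a bar. The KO and WT points do not overlap for Meg3, Cdkn1c and H19, and 2 of the 3 WT libraries sit at 0 for Rtl1. Cdkn1c entered the table through KO libraries only, so its separation is a description only.

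In the Dlk1-Dio3 cluster, Rtl1 encodes a protein derived from a retrotransposon that is needed in the fetal capillaries of the placenta and acts in fetal muscle. Rtl1 had 456, 133 and 426 CPM in KO libraries 1, 2 and 3, against 0, 207 and 0 CPM in WT libraries 1, 2 and 3. All KO libraries had reads in this row, whereas among WT libraries only library 2 had any, at a level above KO 2, so the groups overlapped. These values were 1196, 272 and 696 recovered reads in KO, against 0, 272 and 0 reads in WT. A count of 0 allows up to 1.88 CPM in WT 1 and 1.76 CPM in WT 3, taking 3 reads as the limit and covering counting error only.

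On the log2 scale the SD of Rtl1 was 0.996 in KO and 5.02 in WT. KO averaged 338 ± 178 CPM and WT 69.1 ± 120 CPM (SD, n = 3 each). The log2 fold change was 6.31 (SE 1.95) on the log2(CPM + 0.5) scale, with a limma adjusted p of 0.305, and its size depends on the 0.5 added to the 2 zeros. On recovered reads it was 2.32 with edgeR (adjusted p = 0.613). Without WT 2, limma gave an adjusted p of 0.00134, and the WT group was then listed at 0 in both of its libraries.

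Meg3, a maternally expressed RNA of the same cluster that restrains cell growth in several cell types, had 28.6, 15.7 and 38.5 CPM in KO, against 15.1, 8.38 and 9.97 CPM in WT. The lowest KO library, KO 2, lay only just above the highest WT library, WT 1. The means were 27.6 ± 11.5 CPM in KO and 11.1 ± 3.50 CPM in WT, a log2 fold change of 1.22 (SE 0.42, adjusted p in limma 0.335). The values rest on 75, 32 and 63 reads in KO and on 24, 11 and 17 reads in WT.

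The other genes measured in this cluster overlapped between genotypes. Rian, a maternally expressed RNA that carries small nucleolar RNAs, had 82.8, 19.6 and 43.4 CPM in KO and 24.5, 19.8 and 41.0 CPM in WT. Only KO 1 stood apart, and the log2 fold change was 0.60 (SE 0.49, adjusted p in limma 0.645). Dio3, which inactivates thyroid hormone, had 0, 4.41 and 9.18 CPM in KO and 10.7, 8.38 and 4.10 CPM in WT (log2 fold change -1.42, SE 1.20, adjusted p in limma 0.653). Dlk1, Mirg and Begain had no row in the table.

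Rtl1 lies opposite a group of microRNA genes that belong to the maternally expressed strand of the cluster and are known in mouse to cut Rtl1 RNA. In the annotation 516 exon bases of Rtl1 were shared with 6 such genes, Mir433, Mir434, Mir431, Mir432, Mir127 and Mir136. RefSeq held mature sequences for 5 of them, 10 in all, and each of the 10 was complementary over its whole length to the 6358-base Rtl1 transcript. One arm of each gene is shown, with the seed in capitals, and below the first the stretch of Rtl1 that pairs with it:
miR-127-3p (chr12:109592888-109592909): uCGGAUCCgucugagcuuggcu
Rtl1 from base 2642 of the transcript: agccaagcucagacggauccga
miR-136-5p (chr12:109595331-109595352): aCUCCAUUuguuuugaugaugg
miR-431-5p (chr12:109590459-109590479): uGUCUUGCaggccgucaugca
miR-433-3p (chr12:109591781-109591802): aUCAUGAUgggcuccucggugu
miR-434-3p (chr12:109594565-109594586): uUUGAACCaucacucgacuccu

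No 2 of these 5 seeds are the same. The microRNAs themselves were not measured as mature molecules. Whether reads in the Rtl1 row came from Rtl1 RNA or from the opposite strand cannot be told apart, because the sources used here do not say whether counting used the strand. The RefSeq gene span of Rtl1 also overlaps that of Meg3 by 6830 bases and that of Rian by 474 bases. Rtl1 was 16.0, 8.50 and 11.1 times Meg3 by CPM in KO 1, KO 2 and KO 3, and 24.7 times Meg3 in WT 2.

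In the H19-Igf2 cluster, H19 is a maternally expressed RNA that restrains growth and is the host of miR-675. H19 had 371, 234 and 217 CPM in KO, against 538, 458 and 608 CPM in WT. Every KO library was below every WT library. The means were 274 ± 84.5 CPM in KO and 535 ± 75.1 CPM in WT, a log2 fold change of -0.99 (SE 0.24). The limma adjusted p was 0.273, edgeR gave 0.296 and limma-voom 0.230, while DESeq2 gave 0.0180 with a log2 fold change of -0.95. The reads behind these values numbered 973, 478 and 355 in KO and 857, 601 and 1037 in WT. No alternative fit turned the direction.

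The microRNA in an exon of H19 gives 2 mature arms, printed because the row of H19 counts the host RNA that holds them, again with the seed in capitals:
miR-675-5p (chr7:142577112-142577133): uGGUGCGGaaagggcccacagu
miR-675-3p (chr7:142577078-142577099): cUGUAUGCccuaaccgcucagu

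Igf2, the paternally expressed growth factor that shares enhancers with H19, had 34.0, 16.2 and 12.8 CPM in KO, against 61.6, 54.9 and 11.7 CPM in WT. WT 1 and WT 2 were above all KO libraries and WT 3 was below all of them. The means were 21.0 ± 11.4 CPM in KO and 42.7 ± 27.0 CPM in WT, a log2 fold change of -0.82 (SE 0.62, adjusted p in limma 0.623). Without WT 3 it was -1.57 and without WT 1 it was -0.40, both short of the threshold.

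Igf2 and H19 are switched in opposite ways on the parental chromosomes, so their ratio was formed within each library. It was 0.0915, 0.0690 and 0.0592 in KO, against 0.114, 0.120 and 0.0193 in WT. The KO ratios lay between that of WT 3 and those of WT 1 and WT 2. No difference between genotypes was tested for this ratio.

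Igf2r, the maternally expressed receptor that removes IGF2 from the cell surface and carries enzymes to lysosomes, had 187, 161 and 231 CPM in KO, against 200, 158 and 133 CPM in WT. The groups overlapped. The means were 193 ± 35.6 CPM in KO and 164 ± 33.7 CPM in WT, a log2 fold change of 0.24 (SE 0.22, adjusted p in limma 0.680). Grb10, an adaptor that dampens insulin and IGF receptor signalling and is maternally expressed outside the brain, had 276, 117 and 172 CPM in KO, against 208, 196 and 206 CPM in WT. The WT libraries lay close together and the KO libraries lay on both sides of them. The means were 188 ± 80.9 CPM in KO and 203 ± 6.61 CPM in WT, a log2 fold change of -0.20 (SE 0.29, adjusted p in limma 0.808), and without KO 2 its sign turned, to 0.10.

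Cdkn1c encodes p57, a maternally expressed inhibitor of cyclin-dependent kinases that acts as growth-plate chondrocytes stop dividing. It had 9.54, 11.8 and 4.89 CPM in KO, against 4.40, 0 and 0 CPM in WT. The groups did not overlap, but KO 3 and WT 1 were close. The values rest on 25, 24 and 8 reads in KO and on 7, 0 and 0 reads in WT. A count of 0 allows up to 2.29 CPM in WT 2 and 1.76 CPM in WT 3.

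Cdkn1c averaged 8.73 ± 3.50 CPM in KO and 1.47 ± 2.54 CPM in WT. Its log2 fold change of 3.03 (SE 1.44, adjusted p in limma 0.478) again depends on the 0.5 added to zeros, and a value of 2 gave 1.81. The second highest of the 6 values in each row of the table was at least 7.35 CPM, and for Cdkn1c both values above that were KO libraries. A row that entered the table through 1 genotype in this way had to differ, so its separation is a description only.

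Around Cdkn1c, Kcnq1ot1, the paternally expressed RNA that silences the cluster in cis, had 150, 158 and 139 CPM in KO, against 228, 190 and 195 CPM in WT. All KO libraries were lower (log2 fold change -0.45, SE 0.17), with a limma adjusted p of 0.398. Kcnq1, a potassium channel gene that holds Kcnq1ot1 within it, had 7.63, 7.35 and 5.51 CPM in KO and 13.2, 12.2 and 10.6 CPM in WT (log2 fold change -0.77, SE 0.46, adjusted p in limma 0.543). Both rows were low in the same libraries, and the 2 genes share exon bases on opposite strands. Cd81, a cell-surface tetraspanin, was higher in all KO libraries, at 125, 162 and 114 CPM against 106, 106 and 92.0 CPM in WT (log2 fold change 0.39, SE 0.20, adjusted p in limma 0.501). Nap1l4, a histone chaperone, was lower in all KO libraries (log2 fold change -0.26, SE 0.20, adjusted p in limma 0.624), and Tssc4 overlapped (-0.49, SE 0.47). Phlda2, the placental growth inhibitor of the same cluster, had no row.

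Mest, a paternally expressed gene of the hydrolase family that is high in growing mesoderm, had 356, 107 and 245 CPM in KO, against 189, 237 and 204 CPM in WT. KO 1 was the highest library and KO 2 the lowest, with WT between them. The means were 236 ± 125 CPM in KO and 210 ± 24.5 CPM in WT, a log2 fold change of 0.01 (SE 0.38, adjusted p in limma 0.992). Without KO 2 it was 0.50 and without KO 1 it was -0.37.

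The row of Copg2, a subunit of the coat of Golgi vesicles whose gene meets Mest tail to tail and shares 912 exon bases with it, followed Mest closely. Copg2 had 8124, 637 and 5868 CPM in KO, against 2774, 3831 and 3453 CPM in WT. It was 22.8, 5.97 and 23.9 times Mest in KO and 14.7, 16.2 and 16.9 times Mest in WT. Over the 6 libraries Pearson's r of the log2 values was 0.98 and Spearman's rho was 1, with shared libraries and shared bases. Mest and Copg2 reads cannot be told apart by these counts, and their sum had a log2 fold change of -0.06 (SE 0.76, adjusted p in limma 0.978).

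Peg3, a paternally expressed zinc-finger gene tied to growth and maternal behaviour in mouse, had 103, 48.0 and 48.3 CPM in KO, against 48.4, 26.7 and 39.3 CPM in WT. KO 1 stood above all others, and KO 2 and KO 3 were level with WT 1. The means were 66.6 ± 31.9 CPM in KO and 38.1 ± 10.9 CPM in WT, a log2 fold change of 0.74 (SE 0.35, adjusted p in limma 0.478), which was 0.38 without KO 1.

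Peg3os, annotated by RefSeq within the last exon of Peg3 over 865 bases, had far more reads than Peg3. It had 815, 436 and 426 CPM in KO, against 547, 437 and 568 CPM in WT (log2 fold change 0.05, SE 0.27, adjusted p in limma 0.954). The row was 7.88, 9.08 and 8.81 times Peg3 in KO, against 11.3, 16.4 and 14.5 times Peg3 in WT, without overlap of the groups. Summed with Peg3os, Peg3 had a log2 fold change of 0.11 (SE 0.28, adjusted p in limma 0.897), and reads of the pair cannot be told apart here.

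**Figure D2:**
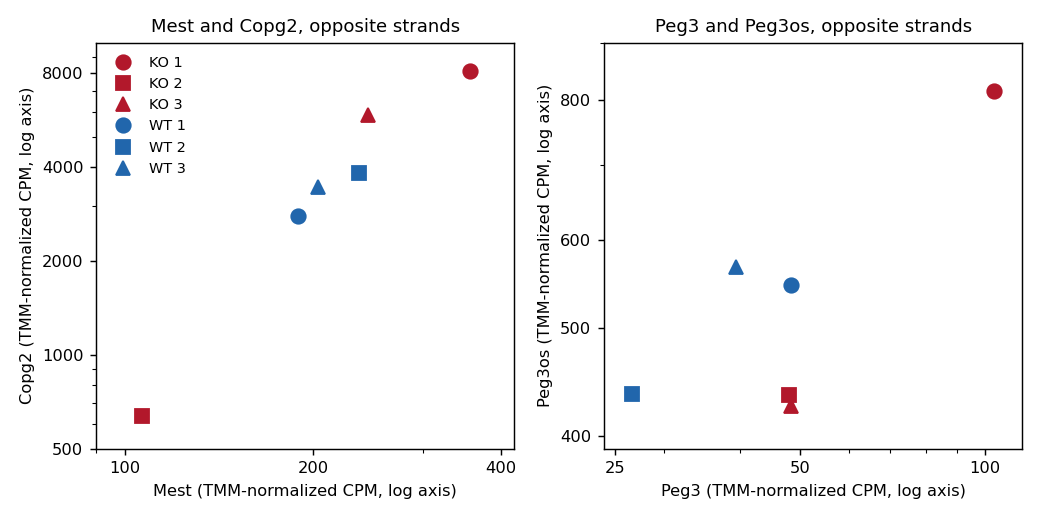
Values in each of the 6 libraries (KO red, WT blue) of 2 members against the row annotated on the opposite strand, on logarithmic axes in TMM-normalized CPM: Copg2 against Mest and Peg3os against Peg3. Copg2 follows Mest across the libraries, with KO 2 lowest in both, while Peg3os follows Peg3 less closely.

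**Figure D3:**
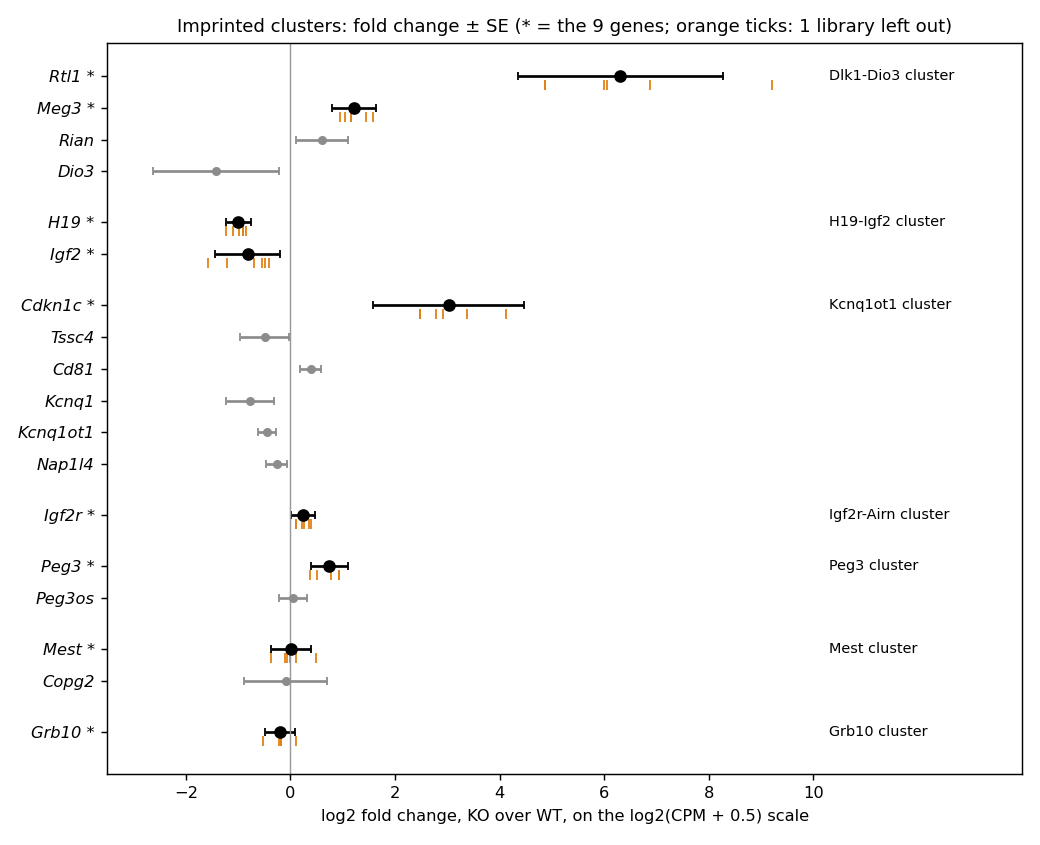
Log2 fold change of KO over WT on the log2(CPM + 0.5) scale, with the standard error of the limma fit as a bar, for the 9 genes (black, marked with an asterisk) and the other measured genes of their clusters (grey); orange ticks are fits that leave out 1 library. The ticks of Rtl1, Meg3, Cdkn1c, Igf2r and Peg3 stay above 0 and those of H19 and Igf2 below 0, whereas those of Mest and Grb10 lie on both sides.

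Levels between the genes were compared per kilobase of annotated exon, within each genotype. H19 had the highest per-kilobase level, 111.5 ± 34.4 CPM in KO and 217 ± 30.5 CPM in WT (SD, n = 3 each). Mest followed at 59.9 ± 31.7 in KO and 53.2 ± 6.20 in WT. Rtl1 was next in KO, at 53.2 ± 28.1, which did not differ from Mest beyond the spread, but in WT, at 10.9 ± 18.8, its mean lay below those of Grb10 and Igf2r. Grb10 (20.7 ± 8.90 in KO, 22.4 ± 0.727 in WT) and Igf2r (20.8 ± 3.83 in KO, 17.6 ± 3.62 in WT) were level with each other in KO by this length. By the longest transcript, the means of Grb10 were above those of Igf2r in both genotypes, at 37.2 ± 16.0 in KO and 40.2 ± 1.31 in WT. Igf2r was then at 21.7 ± 4.01 in KO and 18.4 ± 3.79 in WT. By the mean of all 6 libraries, Grb10 ranked above Igf2r by either length. Rtl1 and Grb10 held ranks 3 and 4 by annotated exon and changed places by the longest transcript. Igf2 (3.67 ± 1.99 in KO, 7.46 ± 4.73 in WT), Peg3 (5.00 ± 2.40 in KO, 2.86 ± 0.818 in WT) and Cdkn1c (4.28 ± 1.72 in KO, 0.719 ± 1.25 in WT) were low and had overlapping spreads in KO. Meg3 was the lowest, at 1.53 ± 0.634 in KO and 0.616 ± 0.194 in WT.

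The KO libraries differed among themselves in several of these genes. KO 2 was the lowest KO library for 6 of the 9 (66.7%), against 36.9% of all genes, and KO 1 was the highest for 6 of the 9 (66.7%), against 33.7% of all genes. The SD of the log2 values of Mest was 0.888 in KO and 0.165 in WT, and that of Grb10 was 0.619 in KO and 0.047 in WT. Meg3, H19 and Peg3 also had the larger SD in KO. The SD was larger in WT for Rtl1 (5.02 against 0.996 in KO) and Cdkn1c (1.90 against 0.618). The same held for Igf2 (1.31 against 0.716) and Igf2r (0.293 against 0.263). The median SD over all genes was 0.387 in KO and 0.344 in WT. Among the 36 pairs of members, Grb10 and Mest had the highest correlation of log2 values over the 6 libraries (Pearson's r 0.89), followed by Igf2r with Meg3 (0.82) and Cdkn1c with Meg3 (0.74). The lowest values were those of H19 with Rtl1 (-0.74), with Meg3 (-0.67) and with Cdkn1c (-0.66). These are descriptions over libraries of both genotypes and of unequal depth. The part of either in these correlations was not tested.

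Among 6108 other genes with a mean of at least 20 CPM, the most alike by Pearson's r of log2 values over the 6 libraries were Nup85 (0.994) and Dbndd1 (0.986) for H19, and Egfl8 (0.985) and Cers2 (0.983) for Rtl1. For Meg3 they were Clptm1 (0.986) and Uap1l1 (0.983), and for Cdkn1c Gpx4 (0.989) and Icam1 (0.988). Igf2 was most like Arhgap28 (0.990) and Ift74 (0.980), and Igf2r most like Nudt9 (0.989) and Psmd11 (0.988). For Peg3 the closest were Sdc2 (0.992) and AW549877 (0.988), for Mest Prorsd1 (0.989) and Rrm2 (0.985), and for Grb10 Ezh2 (0.983) and Cstf2 (0.981). With 6 libraries, between 18 and 112 genes exceeded 0.9 for a member.

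Some sums of cell markers did not overlap between genotypes, some varied with single libraries, and others overlapped. No sum was tested. Marker sums below are CPM. The 9 measured markers of dividing cells (of 10) summed to 909, 794 and 1108 in KO, against 1609, 1777 and 1523 in WT, lower in all KO libraries like H19. All 9 had lower KO means, and 5 of them were lower without overlap, as 9.57% of all genes were. The 6 measured mural markers (of 7) summed to 209, 322 and 229 in KO, against 503, 507 and 392 in WT. The separation of the sums rested on Acta2, since the 5 others summed to 149, 130 and 144 in KO, against 173, 113 and 165 in WT. By log2 fold change 4 of the 6 mural markers were lower and 2 were higher. Taken singly, Acta2, Cnn1 and Myh11 were lower in all KO libraries, and Cspg4 was higher in all of them.

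Sums of other markers were higher in KO, like Meg3 and Cdkn1c. The 6 measured osteoblast markers (of 7) summed to 3914, 2932 and 3907 in KO, against 1061, 1992 and 655 in WT. Ibsp made up 89.6% to 92.5% of the sum in KO and 80.3% to 83.3% in WT. The 5 others summed to 293, 305 and 293 in KO, against 203, 333 and 129 in WT, so without Ibsp the groups overlapped. Bglap and Bglap2 were listed at 0 in all WT libraries. Both rows entered the table through KO libraries only, as Cdkn1c did, so they had to differ. The 11 measured chondrocyte markers (of 12), which check the labelled cell type and were present in every library, summed to 6593, 3595 and 3809 in KO, against 3579, 2652 and 2317 in WT. KO 2 and WT 1 were nearly level. By log2 fold change 9 of the 11 were higher and 2 were lower. Without overlap 5 were higher, beside 8.82% of all genes, and 0 were lower, beside 9.57%.

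Macrophage markers, all 12 measured, summed to 1012, 14708 and 3311 in KO, against 5962, 5512 and 5038 in WT. Lyz2 made up 82.7% of the sum in KO 2. The 11 others summed to 418, 2543 and 1553 in KO, against 1823, 2186 and 1390 in WT, so KO 2 was then much closer to WT. Both sums were highest in KO 2 and lowest in KO 1, the libraries in which Mest, Grb10 and Rtl1 were lowest and highest among KO libraries. Of the 12, only Mrc1 did not overlap, lower in KO (adjusted p 0.0237 with DESeq2, 0.283 with limma). In the other marker lists DESeq2 called Cenpe, Top2a, Ccna2, Mki67, Acta2 and Col3a1 lower, and Ibsp, Col11a2 and Acan higher. Over all genes it called 81 lower and 27 higher, and limma called none of these markers. None of the 16 skeletal muscle markers had a row, 2 of 7 endothelial markers had one (0 to 43.6 in KO, 11.3 to 34.0 in WT). Of 7 neutrophil markers 4 had a row, and Lcn2, which overlapped, made up most of their sum (76.5 to 217 in KO, 187 to 403 in WT). The 3 others were lower without overlap and summed to 3.05, 3.43 and 5.51 in KO, against 87.3, 86.1 and 76.2 in WT. S100a8 and S100a9 were at 0 in all KO libraries, and S100a9 was called by edgeR (adjusted p = 0.0106) but not by limma (adjusted p = 0.0701). All 3 rows reached the 7.35 CPM given above for Cdkn1c through WT libraries only, so they had to differ. Their separation and the edgeR call are a description only. Sums of the 3 measured adipocyte markers (of 6) were 145 to 300 in KO and 107 to 232 in WT, and those of 6 fibroblast and tendon markers (of 8) were 5328 to 7776 in KO and 6287 to 8324 in WT. The part of any of these lists in the values of the imprinted genes was not tested.

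**Figure D4:**
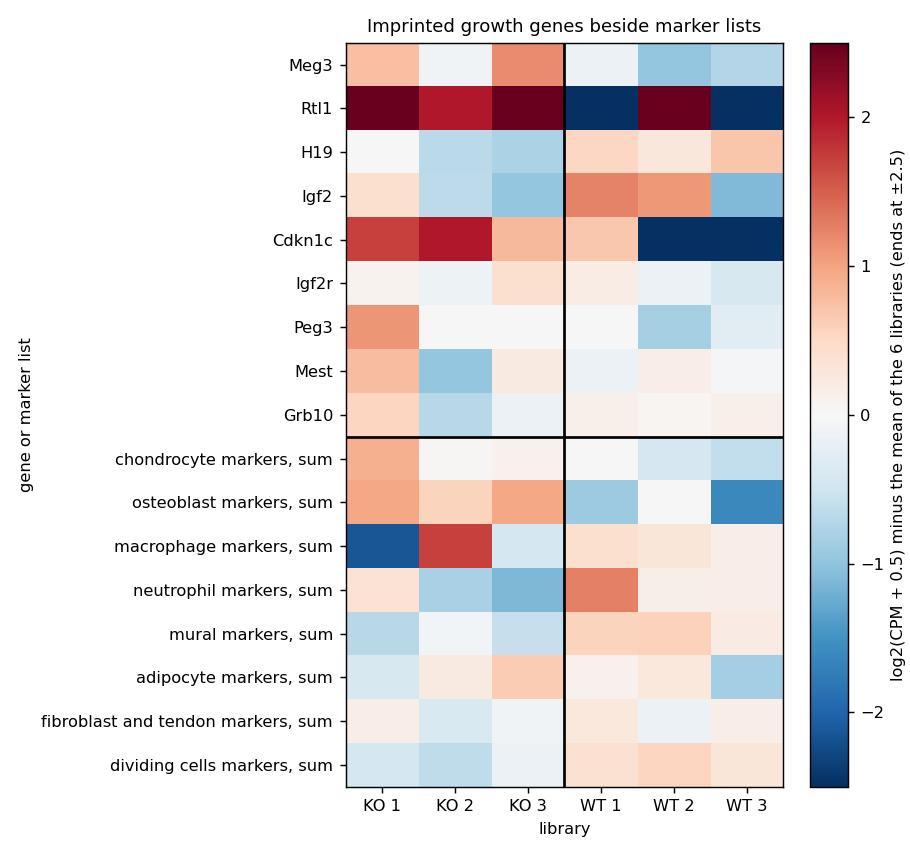
Heat map of log2(CPM + 0.5) minus the mean of the 6 libraries, KO libraries left of WT libraries, for the 9 genes (above the line) and for the summed markers of 8 cell types or states (below it); red is above the mean, blue below, and colours end at the limits of the scale. Markers of dividing cells are lower in all KO libraries, as H19 is, and macrophage markers are highest in KO 2, where Mest and Grb10 are lowest.

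Imprinted genes outside the 9 were mostly within the spread of the libraries. Of 68 listed, 33 had a row, 20 with a higher and 13 with a lower KO mean on the log scale, with a median log2 fold change of 0.10. None passed limma, edgeR or limma-voom at an adjusted p below 0.05, nor DESeq2 where it gave one. At an unadjusted limma p below 0.05 there were 3 higher and 3 lower, beside 4.64% and 6.4% of all genes. The groups did not overlap for 4 higher and 6 lower genes, beside 8.82% and 9.57% of all genes. Nnat, a paternally expressed membrane proteolipid gene, had 36.3, 26.9 and 45.3 CPM in KO, against 59.1, 64.0 and 73.3 CPM in WT (log2 fold change -0.87, SE 0.25, adjusted p in limma 0.294). All KO libraries were lower.

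Inpp5f, a phosphoinositide phosphatase gene with an imprinted variant, was also lower without overlap, at 170, 378 and 237 CPM in KO, against 438, 497 and 497 CPM in WT (log2 fold change -0.94, SE 0.27, adjusted p in limma 0.294). Kcnq1ot1, above, was the third. Impact, a paternally expressed regulator of the amino-acid stress kinase GCN2, had 129, 67.6 and 77.1 CPM in KO, against 52.1, 43.4 and 49.2 CPM in WT. Its log2 fold change was 0.86 (SE 0.27, adjusted p in limma 0.312), with every KO library higher. Sgce, the paternally expressed epsilon-sarcoglycan gene, was higher without overlap as well (log2 fold change 0.81, SE 0.36, adjusted p in limma 0.451), while Pon3, a paraoxonase gene of the same cluster, overlapped (1.10, SE 0.40, adjusted p in limma 0.368).

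The IGF system, through which Igf2, Igf2r and Grb10 act, was near the median of all genes. Of 27 listed genes 19 had a row, 9 with a higher and 10 with a lower KO mean on the log scale, and the median log2 fold change was -0.02. None passed limma, edgeR or limma-voom, nor DESeq2 where it gave an adjusted p. At an unadjusted limma p below 0.05 there were 2 higher and 1 lower, beside 4.64% and 6.4% of all genes. The groups did not overlap for 2 higher and 0 lower genes, beside 8.82% and 9.57% of all genes. Grb14, an adaptor of the same family as Grb10, had 57.2, 27.4 and 36.7 CPM in KO, against 19.5, 10.7 and 11.7 CPM in WT. Its KO libraries were all higher (log2 fold change 1.49, SE 0.37, adjusted p in limma 0.273).

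Igfbp6, a binding protein that favours IGF2, had 30.2, 18.6 and 29.4 CPM in KO, against 9.42, 3.05 and 18.8 CPM in WT (log2 fold change 1.56, SE 0.59, adjusted p in limma 0.374). Its groups met at KO 2 and WT 3. Pappa, a protease that frees IGFs from binding proteins, had 5.72, 70.1 and 12.8 CPM in KO, against 57.2, 71.6 and 48.7 CPM in WT. KO 1 and KO 3 were low and KO 2 was level with WT (log2 fold change -1.71, SE 0.72, adjusted p in limma 0.432). The receptors were level between genotypes within their error, with log2 fold changes of 0.00 (SE 0.30) for Igf1r and -0.02 (SE 0.39) for Insr, and Igf1 had 0.37 (SE 0.40). Of 10 listed regulators of imprints, such as DNA methyltransferases and CTCF, 6 had a row. Of these, 0 had an unadjusted limma p below 0.05 or were called by edgeR or limma-voom. DESeq2 gave no adjusted p for Uhrf1 and Dnmt3a and called none of the others. Zfp445, which binds methylated imprint control regions, was higher without overlap (log2 fold change 0.44, SE 0.21, adjusted p in limma 0.483).

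**Figure D5:**
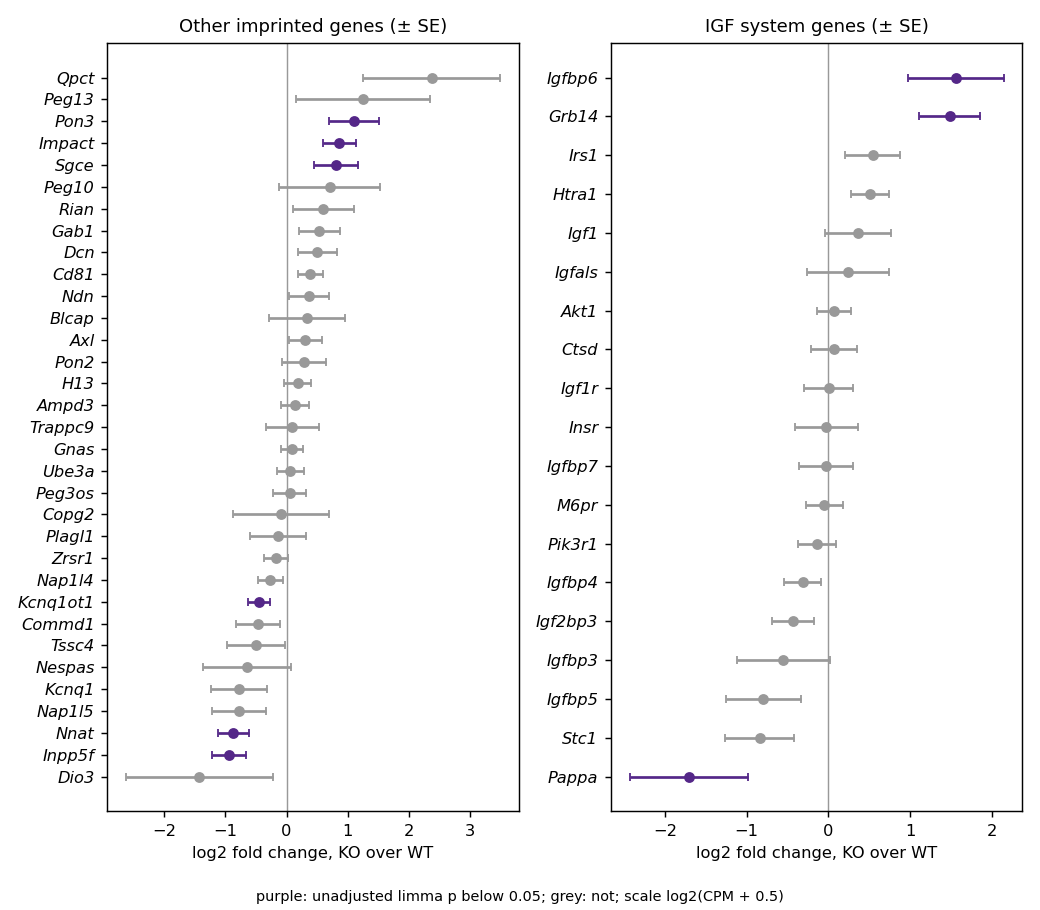
Log2 fold change of KO over WT with its standard error (limma, log2(CPM + 0.5) scale) for each of the 33 other imprinted genes (left) and the 19 measured genes of the IGF system (right), in order of size; purple marks an unadjusted p below 0.05. Genes lie on both sides of 0 in both lists, with Pon3, Impact, Sgce, Igfbp6 and Grb14 higher and Kcnq1ot1, Nnat, Inpp5f and Pappa lower among the purple points.

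The libraries held 989217 to 5266617 recovered reads, or 947081 to 1772185 without the rows Rn45s, Lars2 and Mir6236. WT 1 stood apart, with 59.1% of its reads in Rn45s, a row of ribosomal RNA, and of the 9 genes only Mest, near 0, had another sign without WT 1. Mir34a had no row, so no value of the deleted gene was at hand to check the genotype of a library.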

How the data were processed

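Total RNA libraries of 3 KO and 3 WT samples were analysed. Per the submitters' processing notes the build was mm10 and the tools included HISAT2 2.1.0, StringTie 1.3.5, cutadapt 1.18, edgeR and bcl2fastq, with no role given. The authors deposited a signal for each gene, TMM-normalized CPM per the title of their table. Dividing by the smallest step of a library gave whole reads for 100% of values (tolerance 0.001 reads). The members and lists were chosen with earlier results of these data known. 0 columns of values were unmapped, and the KO 3 column was matched to its title despite a mismatch of 1 character.

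All genes were fitted with limma 3.58.1 (R 4.3.3; intensity trend, log2(CPM + 0.5), two-sided, Benjamini-Hochberg). Recovered reads were tested with edgeR 4.0.16 (quasi-likelihood), DESeq2 1.42.0 and limma-voom. The fits were tested on simulated data. Every member was named, with list genes at an unadjusted p below 0.05 (at most 8 a list) and genes of the members' clusters. Zfp445, Igf1, Igf1r, Insr and the marker genes named singly were chosen after their values were seen. Alternatives were pseudocounts, a filter at 20 CPM, other scalings, limma without trend, robust or with array weights, a replicate block and left-out libraries. Sums with the opposite-strand row and leaving out KO 1 and KO 2 together were chosen after seeing the data. Symbols were matched to GENCODE M21 (9816 of 10189, 96.3%). Tables and figures used Python 3.11.15, numpy 2.4.6, pandas 2.3.3 and matplotlib 3.10.9.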

Additional observations from a re-analysis of the deposited data

How the results depend on the processing

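Over all genes, limma called 0 higher and 1 lower in KO. Without the trend it called 7 higher and 3 lower, with robust fitting 1 higher and 3 lower, and with a pseudocount of 2 it called 2 lower. DESeq2 called 27 higher and 81 lower, and edgeR called 2 lower. Leaving out 1 library gave 0 to 7 higher and 0 to 25 lower, the most without KO 2 in both directions, and none lower without WT 1. Without WT 1 and KO 2 together 2 genes were lower.

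Among the members, H19 had an adjusted p of 0.0180 with DESeq2 (log2 fold change -0.95) and passed in no other fit. Leaving out 1 library gave log2 fold changes of -1.23 to -0.85 for H19, 4.86 to 9.21 for Rtl1, 0.94 to 1.58 for Meg3, -1.57 to -0.40 for Igf2, 0.10 to 0.39 for Igf2r, 2.48 to 4.12 for Cdkn1c and 0.38 to 0.93 for Peg3, with no change of direction. The highest value of Rtl1, without WT 2, was the 1 that passed (adjusted p = 0.00134), against WT libraries listed at 0. Over all alternatives the adjusted p of Rtl1 was 0.00134 to 0.829 and that of H19 0.0180 to 0.599. The range was -0.37 to 0.50 for Mest and -0.52 to 0.10 for Grb10, which both changed sign. Mest summed with Copg2 gave -0.064, and Grb10 gave 0.12 without WT 1 and KO 2 together. The cause of these changes was not tested, apart from the smaller number of libraries. Scalings moved the median of all genes by at most 0.08.

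Deviations of same-numbered KO and WT libraries had correlations of 0.059, 0.102 and -0.082. With 3 libraries per genotype these values cannot settle whether same-numbered samples were paired, and the labels do not say. With the replicate block limma called 0 genes lower and 0 higher, and no member passed. KO 1 correlated more with WT 3 than with its own number. Meg3 and Cdkn1c have no value under the filter at 20 CPM. Their low read numbers limit precision, and a change near the spread of 3 libraries was not detectable.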
